A study of Mus musculus with 12 samples.

Results

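A set of 9 genes of pericellular and extracellular matrix breakdown was followed, taken by gene symbol from the 12028 genes in the deposited tables: the matrix metalloprotease genes Mmp2, Mmp3, Mmp9, Mmp11, Mmp13 and Mmp14 (6 genes), and the genes Timp1, Timp2 and Timp3 (3 genes) for tissue inhibitors of metalloproteases. RNA sequencing measured their messenger RNA in M2-10B4, an established line of mouse bone marrow stromal cells of the background C57BL/6J X C3H/HeJ. All 12 cultures were of this single line and were harvested on day 9. ADM+DHT cells (n = 3) received adipogenic medium, which is RPMI without phenol red with 10% charcoal-stripped serum, insulin at 2 µg/mL, the glucocorticoid dexamethasone at 1 µM and the PPAR-gamma agonist rosiglitazone at 2 µM, together with the androgen dihydrotestosterone (DHT) at 10 nM. ADM cells (n = 3) received the same adipogenic medium without DHT. DHT cells (n = 3) were in regular medium with DHT at 10 nM, and control cells (n = 3) were in regular medium without it. Medium and DHT were renewed every 3 days, and what regular medium contained is not stated in the labels, so the effect of the 3 added agents and that of the base medium and serum cannot be told apart.

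Matrix metalloproteases are zinc-dependent enzymes, made as inactive proenzymes and either secreted or held in the cell membrane, that together can cut the main proteins of the extracellular matrix. Tissue inhibitors of metalloproteases bind the active enzymes and block them. Stromal cells that become adipocytes exchange a fibrillar, fibronectin-rich matrix for one rich in basement membrane, and the membrane-bound collagenase encoded by Mmp14 is needed for normal white fat in mice. Messenger RNA levels say nothing of how much proenzyme was activated or inhibited.

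Values are FPKM, a fragment density scaled to transcript length and to the mapped fragments of each library, which can therefore be set side by side between genes. The depth of the libraries is unknown, because the tables hold no counts. The sum of FPKM over the genes with values in all libraries lay between 240492 and 262738 per library, and libraries of a group correlated at r = 0.9895 to 0.9915 against 0.8822 to 0.9735 between groups. The 6 bone marrow stromal markers of 7 with values summed to 1834 to 1859 FPKM in ADM+DHT, 1312 to 1372 in ADM, 2296 to 2395 in DHT and 2217 to 2265 in control libraries. Col1a1 and Col3a1 make up most of that sum, and the markers did not move together: Cxcl12, Vcam1 and Pdgfra, 3 of the 6, had higher means in ADM than in control cells. Cxcl12, for example, averaged 171 FPKM in ADM+DHT, 106 in ADM, 78.5 in DHT and 54.5 in control cells. Those of adipocytes, all 7 of 7, summed to 642.3 to 712.8 FPKM in ADM+DHT, 1857 to 1947 in ADM, 24.45 to 25.76 in DHT and 24.78 to 38.37 in control libraries, so the share of adipocyte RNA moved with the groups and its part in the differences below was not tested. Of 10 macrophage and neutrophil markers only Cd68 and Lyz2 had values in all libraries, with sums of at most 6.194 FPKM in ADM+DHT, 6.706 in ADM, 8.835 in DHT and 10.25 in control libraries. S100a8, a further marker of that list with no value in DHT libraries, measured 0.359, 0.167 and 0.547 FPKM in ADM+DHT and 1.78, 1.10 and 0.946 in ADM libraries, and was listed at 0, 0.320 and 0 in control libraries. Mitochondrial genes took 13.6% ± 0.31 of the FPKM sum in ADM+DHT, 16.8% ± 0.42 in ADM, 10.1% ± 0.45 in DHT and 9.57% ± 0.34 in control cells (SD, n = 3 each), and this share also moved with the groups. In bulk RNA of such cultures, fewer cells that express a gene and less of its RNA per cell cannot be told apart. Fkbp5, a gene that androgen and glucocorticoid receptors induce, averaged 183.3 FPKM in ADM+DHT, 116.9 in ADM, 49.24 in DHT and 4.329 in control cells.

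All 9 genes were lower in ADM than in control cells, and most of them were higher in ADM+DHT than in ADM cells. In ADM against control 9 of 9 fell (limma on log2(FPKM + 1), Benjamini-Hochberg adjusted p below 0.05 over all genes tested), beside 61.6% of the 11074 genes tested that changed, 33.3% that fell and 28.3% that rose. The fall was at least 2-fold for 5 of 9, beside 13.1% of all genes changed by that much, and libraries did not overlap for 9 of 9, beside 67.6%. Their median difference was -1.35 on the log2 scale, and that of all genes tested was -0.026. Mmp3, 1 of the 5 with a 2-fold fall, passed the filter of 1 FPKM only through its control level. Of the 8 other genes all 8 fell, with a median difference of -1.07. The 9 genes were chosen with earlier results of these data known, so their shared direction does not describe the whole gene families.

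In ADM+DHT against ADM cells 8 genes could be tested, of which 6 rose, 1 fell and 1 did not pass, beside 33.5% of 10823 genes that changed, 17.2% that rose and 16.3% that fell. Changes of at least 2-fold were 2 of 8, beside 3.03% of all genes, and libraries did not overlap for 7 of 8, beside 48.3%. Mmp9, the gene that fell and 1 of the 2 with a 2-fold change, passed the filter only through its level in ADM cells. Mmp3 was below the filter in both groups. Of the 7 genes with at least 1 FPKM in both groups, 6 rose, 0 fell and 1 did not pass. This comparison and the one before it use the same ADM libraries, so they are not independent of each other.

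In DHT against control cells 2 of 9 rose, 5 fell and 2 did not pass, beside 26.9% of 10820 genes that changed, 12.7% that rose and 14.1% that fell. Mmp13 and Mmp3 are the 2 of 9 that changed at least 2-fold, beside 2.14% of all genes. Mmp3 again passed the filter only through control, and of the 8 other genes 2 rose, 4 fell and 2 did not pass. Libraries did not overlap for 8 of 9, beside 43.4%. In ADM+DHT against DHT cells, which compares the media in the presence of DHT, 3 of 8 rose, 4 fell and 1 did not pass, beside 50% of 10942 genes that changed, 23.3% that rose and 26.7% that fell. Mmp9, which passed the filter there only through DHT cells, is the 1 of 8 that changed at least 2-fold, beside 6.54%. Libraries did not overlap for 7 of 8, beside 59.6%. Of the 7 genes other than Mmp9, 3 rose, 3 fell and 1 did not pass.

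The effect of DHT in adipogenic medium was compared with its effect in regular medium by the interaction over all 12 libraries. The effect in adipogenic medium minus that in regular medium was positive (upward) for 8 of 9 genes and negative (downward) for Mmp9. Of all 11152 genes tested 25.4% had an interaction, 12.5% upward and 12.9% downward. A positive value need not mean a larger effect in adipogenic medium. For Mmp13 the effect of DHT was 0.11 there, which did not pass, and -3.71 in regular medium. The interaction was at least 2-fold for 5 of 9, beside 3.08% of all genes. Mmp3 passed the filter there only through control cells. Without it the interaction was upward for 7 of 8 genes and at least 2-fold for 4 of 8. The interaction uses the same libraries as the comparisons above, so it is not independent of them.

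**Figure D1:**
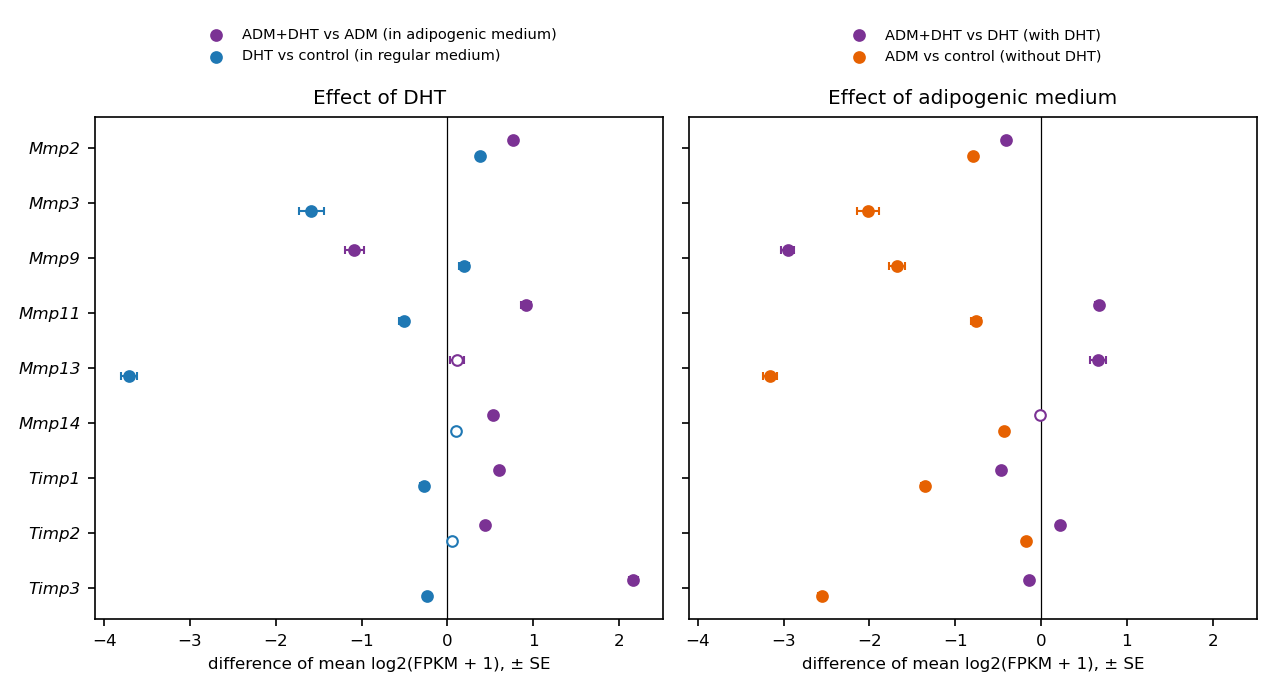
Differences in mean log2(FPKM + 1) with SE (limma) for each gene. The left panel shows the effect of DHT (ADM+DHT minus ADM, then DHT minus control) and the right panel the effect of adipogenic medium (ADM+DHT minus DHT, then ADM minus control), with filled points at an adjusted p below 0.05 and open points above it, and no purple point for Mmp3, which was below the filter there. In ADM minus control all 9 points lie left of 0, and Mmp13 has the lowest point in DHT minus control at -3.71.

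Mmp13 and Mmp3 lie on chromosome 9, in a cluster of 10 metalloprotease genes of which these 2 were in the tables. Mmp13 (GRCm38 chr9:7272514-7283331, + strand) encodes collagenase-3, which cleaves fibrillar collagen and which in bone is made by osteoblasts and hypertrophic chondrocytes. Mmp3 (GRCm38 chr9:7445822-7455975, + strand) encodes stromelysin-1, which cuts proteoglycans and fibronectin and activates other proenzymes. They are 162490 bases and 2 protein-coding genes apart. Their promoters are shown because both genes were far lower in all 3 treated groups than in control, beside that of Timp3, which moved in another pattern. Each line gives the 150 bases before the RefSeq transcript start (GRCm38.p6). Capitals mark TGANTCA, with any base at N, searched on both strands as a loose form of the AP-1 motif to which Fos and Jun proteins bind.
Mmp13 promoter, chr9:7272364-7272513, + strand: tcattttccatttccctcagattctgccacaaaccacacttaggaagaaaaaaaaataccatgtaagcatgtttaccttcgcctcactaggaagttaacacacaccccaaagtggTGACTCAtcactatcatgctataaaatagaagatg
Mmp3 promoter, chr9:7445672-7445821, + strand: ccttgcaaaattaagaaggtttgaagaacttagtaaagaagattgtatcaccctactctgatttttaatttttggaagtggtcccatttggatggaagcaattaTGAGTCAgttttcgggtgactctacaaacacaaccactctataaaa
Timp3 promoter, chr10:86300262-86300411, + strand: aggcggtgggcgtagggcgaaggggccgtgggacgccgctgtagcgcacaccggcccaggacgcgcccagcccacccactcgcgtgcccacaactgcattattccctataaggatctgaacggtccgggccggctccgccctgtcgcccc
In the Mmp13 promoter the letters TGACTCA begin 35 bases before the start, and in that of Mmp3 the letters TGAGTCA begin 46 bases before it. The Timp3 stretch ends at a start 40 bases inside the deposited gene, and has no such letters. Over windows of 300 bases (250 before the start and 50 after it), TGANTCA was in 2 of the 7 promoters of these genes found in the RefSeq table and in 7.81% of all 32817. That share counts any base at N, while Mmp13 has C and Mmp3 has G there. Mmp2 and Mmp9 had no entry there, so their promoters were not searched for any motif. The Ets motif AGGAAG was in the windows of Mmp13, Mmp3, Mmp14, Timp1 and Timp3 and in 35.4% of all, and the TATA motif TATAAA in those of Mmp13 and Mmp3 and in 13.6% of all. A steroid receptor element of 15 letters was also searched, and it was in none of the windows of these genes and in 3 of all 32817. With so few matches among all promoters, its absence from these windows says little. A match describes letters and not a bound site.

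Mmp13 measured 14.0, 12.9 and 14.6 FPKM in ADM+DHT libraries, 11.6, 14.2 and 12.4 in ADM, 7.16, 9.23 and 8.87 in DHT, and 126, 111 and 128 in control libraries. Every control library stood far above the 9 others, the DHT libraries were the lowest, and ADM+DHT and ADM overlapped. DHT alone left 6.92% of the control mean, at 8.42 ± 1.11 FPKM in DHT and 122 ± 8.93 in control cells (SD, n = 3 each). This was a log2 difference of -3.71 ± 0.095 (SE, limma adjusted p = 1.72e-06), the second largest of the falls in that comparison. ADM cells held 10.5% of the control mean, with a log2 difference of -3.16 ± 0.083 (limma adjusted p = 1.1e-07).

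In the combined treatment Mmp13 was at about the level of adipogenic medium alone. ADM+DHT minus ADM was 0.11 ± 0.081 and did not pass (limma adjusted p = 0.323), while ADM+DHT was above DHT by 0.66 ± 0.095 (limma adjusted p = 0.00101). The interaction was 3.82 ± 0.135 (limma adjusted p = 7.98e-09), the third highest of all genes tested. It reflects a fall with DHT in regular medium and no called change in adipogenic medium.

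Mmp3 was listed at 0, 0 and 0.261 FPKM in ADM+DHT libraries, and measured 0.409, 0.0732 and 0.283 in ADM, 0.452, 0.593 and 1.05 in DHT, and 3.51, 4.52 and 4.15 in control libraries. Control stood apart from all others, DHT lay above ADM with a narrow gap, and ADM+DHT overlapped with ADM. It fell by 1.59 ± 0.144 in DHT against control (limma adjusted p = 0.000278) and fell by 2.02 ± 0.126 in ADM against control (limma adjusted p = 7.13e-06). With 1 FPKM added before the logarithm these differences understate the change, since the DHT mean was 17.2% and the ADM mean 6.28% of that in control cells. ADM+DHT against ADM and against DHT were below the filter. With no filter, ADM+DHT minus DHT was -0.64 (limma adjusted p = 0.0121), and the authors' deposited q for it is 0.0653. ADM+DHT minus ADM was then -0.21 and did not pass (limma adjusted p = 0.296). The interaction of 1.38 ± 0.213 (limma adjusted p = 0.000572) did not pass with 0.1 FPKM added in place of 1 (1.37, adjusted p = 0.215).

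**Figure D2:**
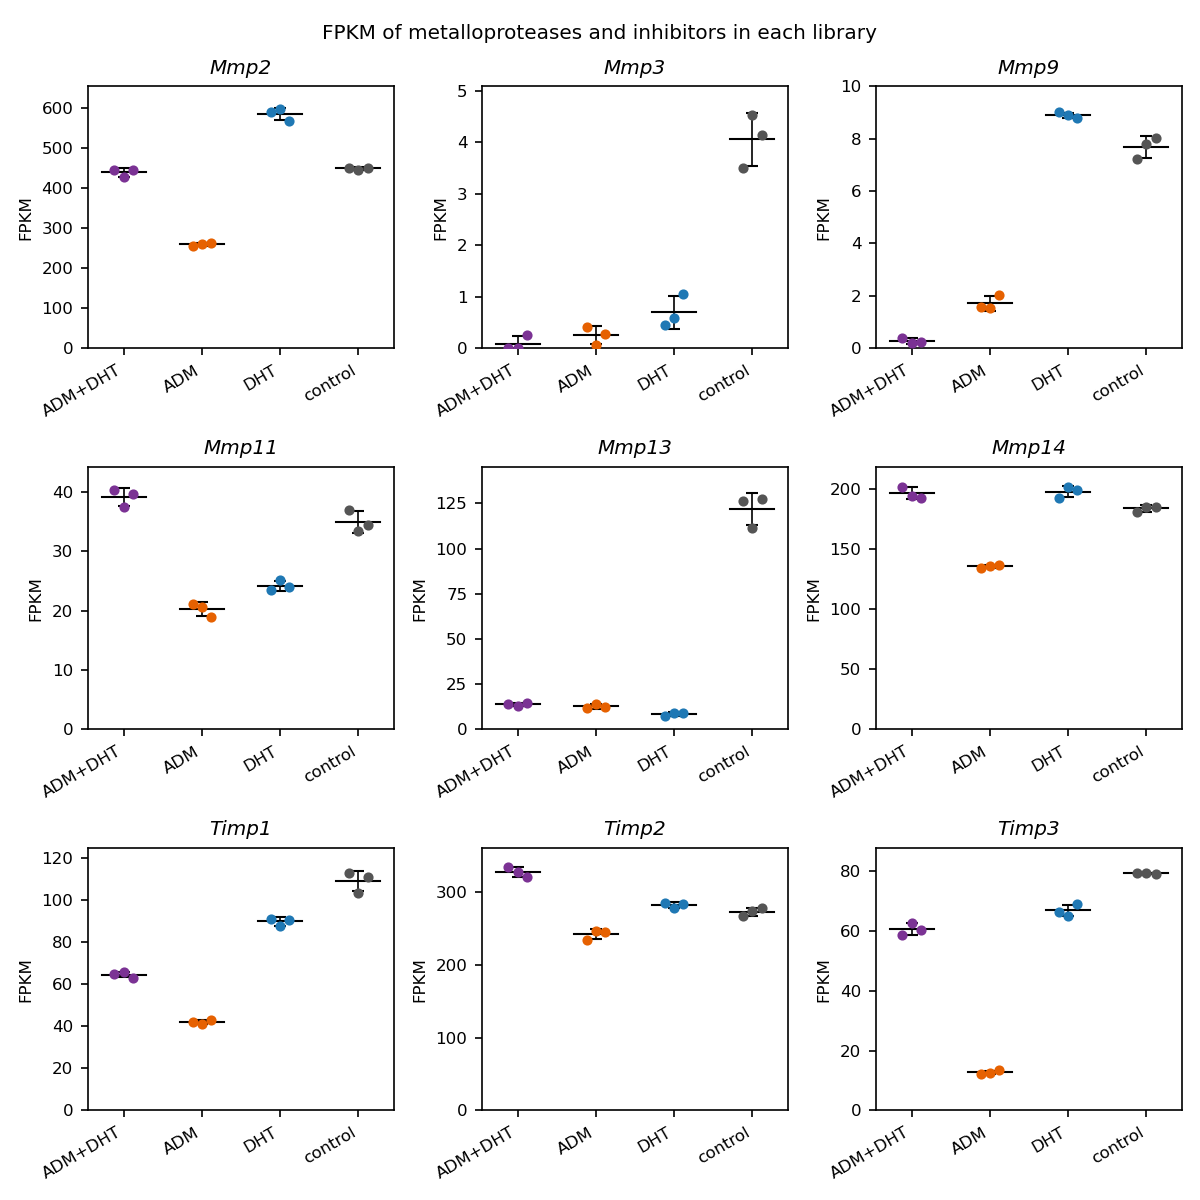
FPKM of each gene in every library (points), by group, with the group mean (line) and SD (bar, n = 3). Each panel has its own linear axis from 0. Mmp13 is high only in control libraries (111 to 128 FPKM), and Timp3 is low only in ADM libraries (12.3 to 13.4 FPKM).

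The gelatinases Mmp2 and Mmp9, whose enzymes cut denatured collagen and type IV collagen of basement membranes, differed in direction with DHT in adipogenic medium. Mmp2 (gelatinase A, GRCm38 chr8:92827291-92853420, + strand) was the most abundant of the 9 genes, at 447, 428 and 446 FPKM in ADM+DHT, 255, 259.7 and 265 in ADM, 590.3, 599 and 569 in DHT, and 451, 447 and 452 in control libraries. The groups did not overlap, in the order ADM, ADM+DHT, control and DHT from low to high. DHT raised it in both media, by 0.76 ± 0.031 in ADM+DHT against ADM (limma adjusted p = 4.79e-06) and by 0.38 ± 0.031 in DHT against control (limma adjusted p = 0.000177). The increase was larger in adipogenic medium, with an interaction of 0.38 ± 0.041 (limma adjusted p = 4e-05). ADM against control fell by 0.79 ± 0.032 (limma adjusted p = 7.41e-07), and ADM+DHT against DHT fell by 0.41 ± 0.031 (limma adjusted p = 4.1e-05). The mean in ADM+DHT cells was 97.8% of that in control cells.

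Mmp9 (gelatinase B, GRCm38 chr2:164940780-164955850, + strand) was expressed at a much lower level. It measured 0.403, 0.194 and 0.243 FPKM in ADM+DHT, 1.58, 1.54 and 2.05 in ADM, 8.99, 8.88 and 8.80 in DHT, and 7.21, 7.79 and 8.02 in control libraries. No groups overlapped, and ADM+DHT was the lowest. In adipogenic medium it fell by 1.09 ± 0.109 with DHT (limma adjusted p = 0.000299), to 16.3% of the ADM mean. The added 1 FPKM understates this change, and with 0.1 FPKM added the difference was -2.29 (adjusted p = 0.000534). In regular medium the DHT mean was 116% of that in control, a difference of 0.19 ± 0.057 just past the threshold (limma adjusted p = 0.0470). That last call did not hold without any 1 of the 6 libraries (adjusted p 0.0580 to 0.138) and the authors' deposited table gives it a q of 0.0561. The interaction was -1.28 ± 0.121 (limma adjusted p = 1.43e-05), the only negative value among the 9 genes. Between media, ADM against control gave -1.68 ± 0.092 (limma adjusted p = 3.6e-06). Against DHT cells, ADM+DHT cells had a log2 difference of -2.95 ± 0.080 (limma adjusted p = 4.28e-07), the fourth largest fall in that comparison, and with 0.1 FPKM added it was -4.60. With 0.1 FPKM added the interaction was -2.50. Macrophages and neutrophils are known sources of Mmp9. Of their markers above, S100a8 was also lower in every ADM+DHT than in every ADM library. Between media it went the other way from Mmp9, with low means of 1.28 FPKM in ADM and 0.107 in control cells. The sums of Cd68 and Lyz2 overlapped, at 5.245 to 6.194 FPKM in ADM+DHT and 5.871 to 6.706 in ADM libraries. Lyz2 averaged 4.648 FPKM in ADM+DHT and 4.645 in ADM cells, and Cd68 0.980 and 1.64 in the same order. The part of such cells in the Mmp9 difference was not tested.

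Mmp14 (GRCm38 chr14:54431612-54445364, + strand) encodes the membrane-type collagenase that, with Timp2 as a bridge, activates the Mmp2 proenzyme at the cell surface. Its values were 202, 195 and 193 FPKM in ADM+DHT, 134, 136 and 137 in ADM, 193, 202 and 199.5 in DHT, and 181, 186 and 186 in control libraries. The ADM libraries stood below all others, and ADM+DHT and DHT overlapped. In ADM against control it fell by 0.44 ± 0.032 (limma adjusted p = 1.7e-05) and rose in ADM+DHT against ADM by 0.53 ± 0.031 (limma adjusted p = 2.13e-05). In regular medium the effect of DHT was 0.10 ± 0.033 and did not pass (limma adjusted p = 0.0541), and the interaction was 0.43 ± 0.041 (limma adjusted p = 1.58e-05). With sums equalised over nuclear genes the DHT effect in regular medium passed (adjusted p = 0.0277), as it did at a filter of 5 FPKM (0.0465) and in a fit of all 12 libraries (0.0188). ADM+DHT minus DHT was -0.01 ± 0.032 and did not pass (limma adjusted p = 0.833), with a sign that turned under both other scalings.

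Mmp11 (GRCm38 chr10:75923222-75936496, - strand) encodes stromelysin-3, which is activated inside the cell by furin and is typical of stromal fibroblasts. It measured 40.3, 37.4 and 39.6 FPKM in ADM+DHT, 21.2, 20.6 and 18.9 in ADM, 23.5, 25.1 and 23.9 in DHT, and 36.9, 33.4 and 34.4 in control libraries. No groups overlapped: ADM+DHT was highest and control next, while DHT and ADM were the low groups. With DHT it rose by 0.92 ± 0.055 in adipogenic medium (limma adjusted p = 2.5e-05) and fell by 0.51 ± 0.051 in regular medium (limma adjusted p = 0.000468). The interaction was 1.43 ± 0.076 (limma adjusted p = 1.58e-07). The log2 difference between media was -0.76 ± 0.060 in ADM against control (limma adjusted p = 2.58e-05) and 0.67 ± 0.045 in ADM+DHT against DHT (limma adjusted p = 2.18e-05). The gene overlaps Chchd10 on the opposite strand, which averaged 2.023 FPKM in ADM+DHT, 1.852 in ADM, 1.316 in DHT and 1.342 in control cells.

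Timp3 (GRCm38 chr10:86300372-86349506, + strand) encodes the inhibitor that stays bound to the matrix and that also blocks ADAM17 and several ADAMTS proteases. It measured 58.8, 62.7 and 60.4 FPKM in ADM+DHT, 12.3, 12.4 and 13.4 in ADM, 66.6, 65.2 and 69.1 in DHT, and 79.5, 79.4 and 79.3 in control libraries. The ADM libraries were far below all others, and no groups overlapped. ADM cells held 16.0% of the control mean, a log2 difference of -2.55 ± 0.045 (limma adjusted p = 1.87e-08). With DHT in the same medium the mean was 4.77 times that in ADM cells, a rise of 2.17 ± 0.048 (limma adjusted p = 8.49e-07) that was number 13 among all rises in that comparison. In regular medium it fell by 0.24 ± 0.035 with DHT (limma adjusted p = 0.00253), and the interaction of 2.41 ± 0.057 (limma adjusted p = 4.64e-10) was number 8 among those upward. ADM+DHT minus DHT was -0.14 ± 0.039 (limma adjusted p = 0.0196), a call that did not hold without DHT replicate 3 (0.0616), ADM+DHT replicate 1 (0.0635) or ADM+DHT replicate 3 (0.0512). Timp3 lies inside Syn3 on the opposite strand, a gene without values in the deposited data, so its level is unknown here.

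Timp1 (GRCm38 chrX:20870166-20874735, + strand) encodes a secreted inhibitor that pairs with the Mmp9 proenzyme and acts poorly on the Mmp14 enzyme. Its values were 64.8, 66.0 and 63.2 FPKM in ADM+DHT, 42.2, 41.2 and 43.3 in ADM, 91.3, 87.8 and 90.8 in DHT, and 113, 104 and 111 in control libraries. No groups overlapped, and the order from low to high was ADM, ADM+DHT, DHT and control, as for Timp3. It rose by 0.60 ± 0.036 in ADM+DHT against ADM (limma adjusted p = 2.54e-05) and fell by 0.28 ± 0.043 in DHT against control (limma adjusted p = 0.00332), with an interaction of 0.88 ± 0.054 (limma adjusted p = 4.63e-07). ADM against control was -1.35 ± 0.046 (limma adjusted p = 3.53e-07) and ADM+DHT against DHT -0.47 ± 0.033 (limma adjusted p = 2.67e-05). The ADM+DHT mean was 59.2% of that in control cells, against 76.3% for Timp3. Timp1 lies inside Syn1 on the opposite strand, whose group means were at most 1.096 FPKM.

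Timp2 (GRCm38 chr11:118301069-118355740, - strand) encodes the inhibitor that also carries the Mmp2 proenzyme to the Mmp14 enzyme. It was the most abundant of the 3 inhibitor genes and varied least, at 335, 328 and 320.5 FPKM in ADM+DHT, 234, 246 and 246 in ADM, 284, 278 and 284 in DHT, and 266, 273 and 278 in control libraries. ADM was the lowest group and ADM+DHT the highest, while DHT and control overlapped. It rose by 0.44 ± 0.033 in ADM+DHT against ADM (limma adjusted p = 8.24e-05), while DHT against control gave 0.05 ± 0.031 and did not pass (limma adjusted p = 0.300). ADM against control was -0.17 ± 0.037 (limma adjusted p = 0.00504) and ADM+DHT against DHT 0.22 ± 0.028 (limma adjusted p = 0.00057), and the interaction was 0.39 ± 0.043 (limma adjusted p = 4.94e-05). Cep295nl lies inside Timp2 on the same strand and averaged 1.122 FPKM in ADM+DHT, 0.7266 in ADM, 1.931 in DHT and 2.856 in control cells.

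Summed over the 6 genes, metalloprotease FPKM was 690.3 ± 15.7 in ADM+DHT, 430.5 ± 6.11 in ADM, 826 ± 17.1 in DHT and 802 ± 11.5 in control cells (SD, n = 3 each). The 3 inhibitor genes summed to 453 ± 7.84 in ADM+DHT, 297 ± 7.57 in ADM, 439 ± 7.15 in DHT and 461 ± 6.32 in control cells. The ratio of the sums was 1.52 ± 0.045 in ADM+DHT, 1.45 ± 0.017 in ADM, 1.88 ± 0.070 in DHT and 1.74 ± 0.014 in control cells. Mmp2 and Timp2 make up much of these sums. Without this pair the ratio was 2.00 ± 0.086 in ADM+DHT, 3.11 ± 0.103 in ADM, 1.53 ± 0.067 in DHT and 1.87 ± 0.023 in control cells, so ADM cells are lowest by the first ratio and highest by the second. In the first ratio the lowest ADM+DHT library and the highest ADM library nearly met, both at 1.47. The sums are a description, since the members weigh in by their abundance.

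**Figure D3:**
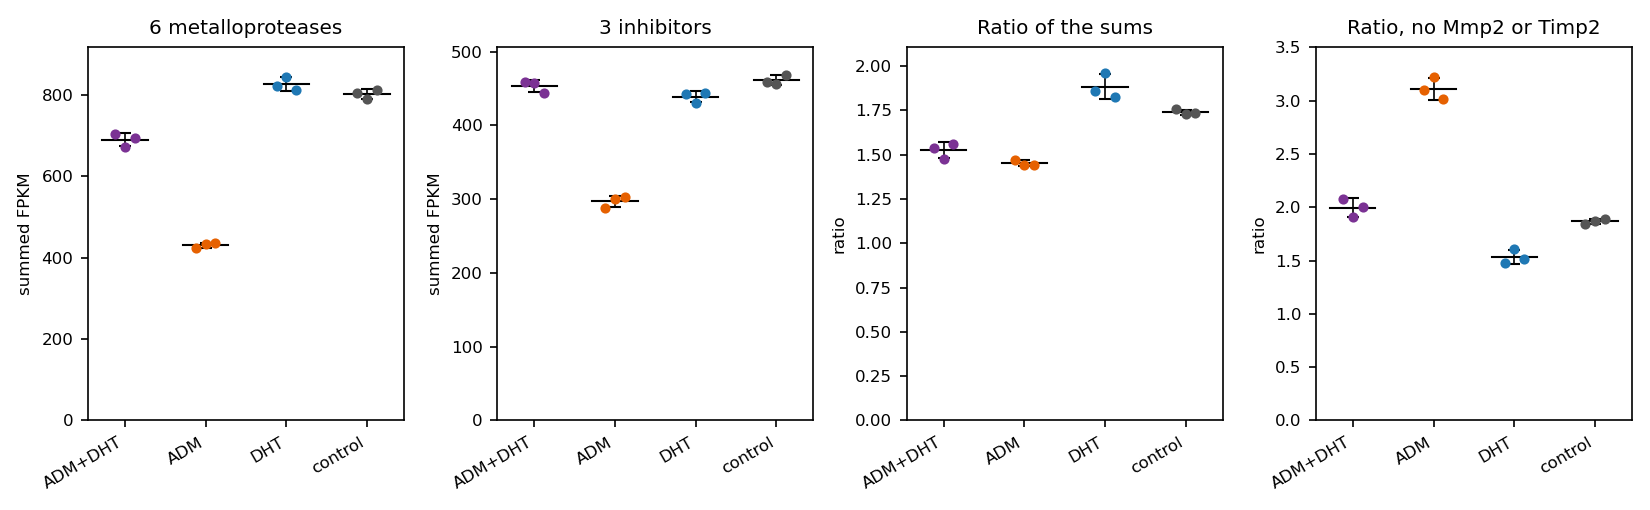
Summed FPKM of the 6 metalloprotease genes and of the 3 inhibitor genes in every library, their ratio, and the ratio without Mmp2 and Timp2, with group means (lines) and SD (bars, n = 3). ADM is the lowest group by the ratio of the full sums (1.45) and the highest once Mmp2 and Timp2 are left out (3.11).

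Likeness between profiles was measured as the root mean square difference of gene-centred log2(FPKM + 1) over the 12 libraries, a description with no test. The measure is not scaled to the size of the differences, so genes whose groups differ little lie close together. Among the 9 genes the closest pair was Mmp14 and Timp2 at 0.131, followed by Mmp2 and Mmp14 at 0.229. Mmp14 and Timp2 are also the genes whose group means spanned least, 0.54 and 0.44 on this log2 scale. Against 7512 other genes, the 3 closest to Mmp2 were Tgfb3 (0.072), Nrep (0.081) and Tgfb2 (0.081). Those closest to Timp1 were Rrm1 (0.083), Klf10 (0.086) and Cldn1 (0.092). Mmp9 was closest to Hist1h2ah (0.21), Hmga2 (0.24) and Hmgb2 (0.24), with Hmgb2 at 14.6 FPKM in ADM+DHT, 23.3 in ADM, 77.6 in DHT and 87.9 in control cells. Mmp3 was closest to Nat8 (0.20), Klhl13 (0.23) and Gbp3 (0.24). Mmp13 and Timp3, with wide spans of 3.71 and 2.55, had no near match by this unscaled measure. The closest were Dpt at 0.56 for Mmp13 and Atp1b1 at 0.36 for Timp3.

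Related genes of the protease network, taken as lists, moved in both directions. The median log2 difference of all genes tested was 0.0065 in ADM+DHT against ADM and -0.026 in ADM against control. The shares of all genes that changed, 33.5% in ADM+DHT against ADM and 61.6% in ADM against control, stand beside each count of a list below. Among other metalloproteases, 1 of 5 tested rose and 1 fell in ADM+DHT against ADM (40% changed, near the 33.5% of all genes, list median 0.10), and 2 of 4 rose and 2 fell in ADM against control (100% against 61.6%, list median 0.096). Mmp19, a secreted metalloprotease, averaged 49.1 FPKM in ADM+DHT, 45.8 in ADM, 18.3 in DHT and 14.7 in control cells, and it rose in ADM against control by 1.57 ± 0.042 (limma adjusted p = 1.23e-07). Mmp16, a membrane-type enzyme, was 1.48 FPKM in ADM+DHT, 2.36 in ADM, 2.32 in DHT and 4.87 in control cells, and it fell by 0.44 ± 0.071 in ADM+DHT against ADM (limma adjusted p = 0.00310) and fell by 0.82 ± 0.065 in DHT against control (limma adjusted p = 0.000156).

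Of other inhibitors and clearance proteins, 1 of 5 rose and 2 fell in ADM+DHT against ADM (60% changed, against 33.5% of all genes, list median 0.049), and 2 of 6 rose and 4 fell in ADM against control (100% against 61.6%, list median -0.48). Timp4, a further inhibitor of the same family, was at 1.88 FPKM in ADM+DHT, 5.66 in ADM, 0.0492 in DHT and 0.00606 in control cells. It rose in ADM against control by 2.72 ± 0.079 (limma adjusted p = 1.77e-07) and its difference in ADM+DHT against ADM was -1.21 ± 0.097 (limma adjusted p = 0.000108). Lrp1, an endocytic receptor that clears metalloproteases, differed by -0.65 ± 0.036 in ADM against control (limma adjusted p = 4.12e-06) and by 0.52 ± 0.037 in ADM+DHT against ADM (limma adjusted p = 6.12e-05). Thbs2, a matrix protein that takes part in the uptake of Mmp2, averaged 21.6 FPKM in ADM+DHT, 31.7 in ADM, 30.4 in DHT and 72.4 in control cells.

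Of activators and docking proteins, 6 of 14 rose and 2 fell in ADM+DHT against ADM (57.1% changed, against 33.5% of all genes, list median 0.14), and 10 of 16 fell and 2 rose in ADM against control (75% against 61.6%, list median -0.25). Ctsk, the collagen-cutting cathepsin K, averaged 99.8 FPKM in ADM+DHT, 54.0 in ADM, 72.6 in DHT and 61.1 in control cells, and rose in ADM+DHT against ADM by 0.88 ± 0.054 (limma adjusted p = 2.97e-05). Furin, which activates the Mmp11 and Mmp14 proenzymes, rose there by 0.44 ± 0.048 (limma adjusted p = 0.000453). Plau, the urokinase plasminogen activator, differed by -1.43 ± 0.086 in ADM against control (limma adjusted p = 5.9e-06).

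Of ADAM and ADAMTS proteases, relatives of which Timp3 inhibits several, 12 of 17 rose and 1 fell in ADM+DHT against ADM (76.5% changed, against 33.5% of all genes, list median 0.40), while 12 of 18 fell and 5 rose in ADM against control (94.4% against 61.6%, list median -0.39). Adamts14, a procollagen-processing enzyme, averaged 15.7 FPKM in ADM+DHT, 4.86 in ADM, 12.2 in DHT and 8.93 in control cells, and rose in ADM+DHT against ADM by 1.51 ± 0.051 (limma adjusted p = 2.56e-06). The gene that fell was Adam12, which fell by 0.47 ± 0.040 in ADM+DHT against ADM (limma adjusted p = 0.000141) and rose by 2.33 ± 0.067 in ADM against control (limma adjusted p = 1.74e-07).

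Among matrix substrates, 10 of 22 rose and 3 fell in ADM+DHT against ADM (59.1% changed, against 33.5% of all genes, list median 0.12), and 9 of 23 rose and 12 fell in ADM against control (91.3% against 61.6%, list median -0.11). Fibronectin (Fn1) averaged 297 FPKM in ADM+DHT, 137 in ADM, 852 in DHT and 913 in control cells, and its interaction was 1.22 ± 0.047 (limma adjusted p = 1.7e-08). Col4a1, a basement membrane collagen chain, averaged 407 FPKM in ADM+DHT, 358 in ADM, 219 in DHT and 94.9 in control cells, with an interaction of -1.02 ± 0.056 (limma adjusted p = 2.06e-07).

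Of the AP-1 and Ets factors, whose motifs were searched above, 4 of 10 rose and 2 fell in ADM+DHT against ADM (60% changed, against 33.5% of all genes, list median 0.19). In ADM against control 6 of 11 fell and 1 rose (list median -0.54), and the 63.6% that changed is near the 61.6% of all genes. In DHT against control 4 of 11 fell and 2 rose, beside 26.9% of all genes that changed. Fosl1, the AP-1 subunit Fra-1, fell by 1.88 ± 0.063 in ADM against control (limma adjusted p = 3.31e-07), fell by 0.63 ± 0.066 in DHT against control (limma adjusted p = 0.000551) and fell by 0.62 ± 0.142 in ADM+DHT against ADM (limma adjusted p = 0.0143), where Mmp13 did not pass. Fos, another subunit, rose in both comparisons in which Mmp13 fell, by 1.39 ± 0.122 in ADM against control (limma adjusted p = 4.41e-05) and by 0.78 ± 0.128 in DHT against control (limma adjusted p = 0.00435), and also rose by 0.75 ± 0.114 in ADM+DHT against ADM (limma adjusted p = 0.00229). Jun, a partner of the Fos proteins, rose with DHT in both media, by 0.77 ± 0.034 in ADM+DHT against ADM (limma adjusted p = 6.45e-06) and by 0.51 ± 0.043 in DHT against control (limma adjusted p = 0.000186). Of the Ets factors, Elk3 fell by 1.44 ± 0.049 in ADM against control (limma adjusted p = 3.61e-07) and by 0.37 ± 0.044 in DHT against control (limma adjusted p = 0.00104). Etv5 fell by 1.42 ± 0.099 (limma adjusted p = 1.28e-05) and by 0.64 ± 0.087 (limma adjusted p = 0.00182) in the same order. The other Ets factors did not pass in DHT against control. Whether any of these factors acts on Mmp13 or Mmp3 here was not tested.

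**Figure D4:**
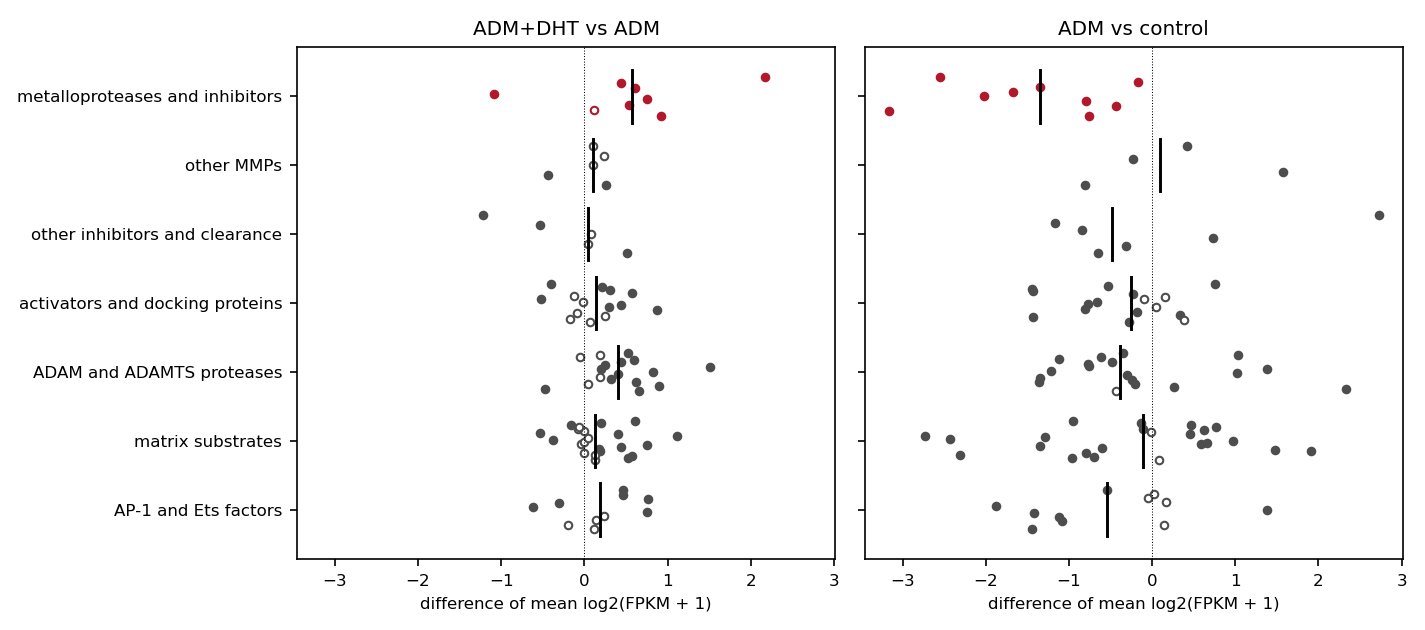
Difference in mean log2(FPKM + 1) of each tested gene (points) of the metalloproteases and inhibitors described and of 6 lists of related genes, in ADM+DHT minus ADM (left) and ADM minus control (right). Black bars are list medians, filled points have a limma adjusted p below 0.05, and in the top row 8 genes could be tested on the left and 9 on the right. On the right the top row lies wholly below 0, while each other list has genes on both sides. The top row and the lists were chosen with earlier results of these data known. Related genes placed in other lists went both ways there: Timp4, Mmp19 and Mmp28 rose, and Mmp16 and Mmp23 fell.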

How the data were processed

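Poly(A) RNA of the 12 cultures was made into strand-specific libraries and sequenced in paired ends on an Illumina HiSeq instrument, per the labels' protocols. Tools named in the submitters' processing notes are HISAT2, StringTie, cutadapt and FastQC (no versions), with the build GRCm38. Whether strand was used in quantification is not given in the sources used here, so reads of overlapping genes may be shared. The authors deposited 4 tables, 1 per pair of groups. Per the file headers these hold FPKM for each library, the authors' log2 fold change, the fold change as a ratio, and a p-value and q-value from a test that is not named. Libraries that occur in several tables had identical values there (largest difference 0). Joining on gene identifiers gave 12028 genes, of which 11582 had values in all 12 libraries. A line of each table was empty as received. No column was left out. Groups came from the sample titles and treatment labels. The title of an ADM+DHT sample is spelled differently from the others and was read as replicate 2. The labels call the replicates biological without saying whether they were grown at separate times.

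Counts are not in the tables and the depth is unknown. FPKM steps worth a whole read were sought and found for at most 35.3% of 150 low genes in a library (tolerance 0.05), too few to recover counts. Two-sided limma tests (3.58.1, R 4.3.3) used log2(FPKM + 1) and a variance trend with intensity, for genes whose mean reached 1 FPKM in either group. Pairs of groups were fitted on their own 6 libraries and the interaction on all 12. Benjamini-Hochberg adjustment covered every gene tested, and rose, fell and changed mean an adjusted p below 0.05. Errors of means are SD and those of differences SE. The same fit was also run on simulated data with known changes, with an outcome not given here. Promoter windows came from RefSeq (GRCm38.p6), which held 7 of the 9 genes and lacked Mmp2 and Mmp9. Gene coordinates are those of the deposited tables. Tables and figures used Python 3.11.15, pandas 2.3.3, numpy 2.4.6 and matplotlib 3.10.9.

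The 9 genes and the lists of related genes were chosen with earlier results of these data known. All 9 genes are named, up to 4 genes with the smallest adjusted p of each list and comparison may be named, and for genes whose group means span at least 1 on the log2 scale the 3 nearest profiles among genes of at least 5 FPKM are. Alternatives were a pseudocount of 0.1, no filter, a filter of 5 FPKM, equal sums of nuclear genes, median-ratio scaling, a fit of all 12 libraries, no intensity trend, the replicate number as a block, and leaving out each library.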

Additional observations from a re-analysis of the deposited data

Results flagged for a closer look

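Each of the 9 genes was listed for a closer look because its response to DHT differed between adipogenic and regular medium in the interaction test, which subtracts the effect in regular medium from that in adipogenic medium on the log2(FPKM + 1) scale (limma, n = 3 libraries a group, a difference found in 25.4% of all genes tested). The difference was 3.82 for Mmp13, where DHT minus control was -3.71 and ADM+DHT minus ADM was 0.11. It was 2.41 for Timp3, with effects of 2.17 in adipogenic and -0.24 in regular medium. Mmp11 gave 1.43, with 0.92 in adipogenic and -0.51 in regular medium, and Timp1 gave 0.88, with 0.60 and -0.28 in the same order. In these last 3 genes every ADM+DHT library was above every ADM library and every DHT library below every control library. Mmp3 gave 1.38, a value that rests on libraries listed at or near 0 outside control. Mmp9 gave -1.28 and was the gene with the opposite sign. The values were smaller for Mmp14 at 0.43, Timp2 at 0.39 and Mmp2 at 0.38.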

How the results depend on the processing

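The counts of changed genes and of changed members stayed within 1.5 times of the reported count in every comparison and alternative run. The recomputed values number 643 and leave out the Mmp3 differences that were below the filter. Of the 643, 621 kept direction and side of the threshold, 15 lost the call, 3 gained it and 4 changed sign. Those 4 are Mmp14 in ADM+DHT against DHT, which was -0.01 and not called: 0.0081 with equal sums of nuclear genes, 0.026 with median-ratio scaling, 0.0049 without DHT replicate 2 and 0.0041 without ADM+DHT replicate 3, in a range of -0.029 to 0.0049 with 1 library left out. The lost calls were Mmp9 in DHT against control (9 alternatives, among them 0.0549 with median-ratio scaling and 0.123 in the fit of all 12 libraries), Timp3 in ADM+DHT against DHT (5 alternatives, among them 0.0586 with median-ratio scaling and 0.0541 without an intensity trend) and the Mmp3 interaction with a pseudocount of 0.1. The cause was not tested. The pseudocount of 0.1 also moved the size of the Mmp9 differences by over 1.5 times, to -2.29 in ADM+DHT against ADM and -4.60 in ADM+DHT against DHT, and that of Mmp3 to -3.68 in ADM against control and -2.44 in DHT against control. With 1 library left out, the changed members numbered 9 to 9 in ADM against control, 6 to 6 in DHT against control, 7 to 7 in ADM+DHT against ADM, 6 to 7 in ADM+DHT against DHT and 9 to 9 in the interaction.

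Same-numbered replicates showed no shared deviation, with correlations of -0.0804 to 0.135 over 5540 genes. Differently numbered replicates gave -0.166 to 0.141. These values cannot tell whether same-numbered cultures were set up together, which the labels do not state. With the replicate number as a block, 6712 genes changed in ADM against control, 2542 in DHT against control, 3033 in ADM+DHT against ADM, 4942 in ADM+DHT against DHT and 2750 in the interaction. The members changed were 9, 6, 7, 7 and 9 in the same order, and the call that ended was Mmp9 in DHT against control (adjusted p = 0.0881). Neither scaling moved the median of all genes by over 0.1 on the log2 scale. Depth is unknown, so low genes such as Mmp3 and, in adipogenic medium, Mmp9 carry a counting error that the tables do not show.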
